A study of Mus musculus with 21 samples.

Results

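Cells read interferons through paired receptor chains, Janus kinases and STAT factors, and 9 genes of this route are described here in mouse skin and lymph node. They are the type I interferon receptor chains *Ifnar1* and *Ifnar2*, the interferon gamma receptor chains *Ifngr1* and *Ifngr2*, the kinases *Jak1* and *Tyk2*, the factors *Stat2* and *Irf9*, and the inhibitor *Socs1*. They were chosen by gene name, and all 9 were found among the 55491 genes of the skin table and among the 55491 genes of the lymph node table. The study asked what follows when the epidermis makes too much of the type I interferon IFN-kappa. It used mice with an *Ifnk* transgene (TG) driven by the keratin 14 promoter, which acts in keratinocytes, so other sources of interferon in these mice keep their own control. The line was made with PiggyBac on C57Bl/6 and backcrossed onto BALB/c, and the wild-type (WT) mice were BALB/c. Skin, labelled as not treated (NoTx) throughout, was taken at 12 months of age from WT mice (3 libraries, replicates 8 to 10), from nonlesional (NL) *Ifnk* TG skin (2 libraries, replicates 2 and 3) and from lesional (L) *Ifnk* TG skin (4 libraries, replicates 4 to 7). Inguinal lymph nodes (LN) came from WT and *Ifnk* TG mice, without treatment (also NoTx) or after ultraviolet B light (UVB), with 3 libraries in each of 4 groups. The UVB dose was 250 mJ/cm2 at 310 nm on 3 days a week for 2 weeks, followed by 2 weeks of observation. By the study's methods, NL skin came from the back and from areas like those of the lesions, and nodes were passed through a cell strainer before RNA was isolated. The age of the lymph node mice is not given in the sources used here, nor is the sex, site or mouse behind a given library, or whether NL and L samples share a mouse. Total counts per library ran from 40499078 to 56511276 in skin and from 27599809 to 36428435 in LN.

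Type I interferons, IFN-kappa among them, bind IFNAR1 together with IFNAR2, and the kinases TYK2 and JAK1 on these chains then phosphorylate STAT factors such as STAT2, which joins IRF9 in the factor ISGF3. Interferon gamma binds IFNGR1 and IFNGR2, which signal through JAK1 and JAK2, and SOCS1, itself induced by interferons, blocks these kinases. In skin this route is known for the interferon signature of cutaneous lupus, where keratinocytes are a source of type I interferon.

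The labels were first compared with the counts. *Ifnk* had 0, 0 and 0 counts in WT skin, 6 and 0 in NL skin, 14, 11, 5 and 8 in L skin and 0 in all 12 LN libraries, and whether transgene transcripts are counted under this gene was not tested. In CPM (counts scaled to a common library size by edgeR), the 6 keratinocyte markers summed to 9779 to 25544 in skin and 1.38 to 3.12 CPM in LN. The 5 fibroblast markers summed to 2488 to 7379 CPM in skin and 13.6 to 108 CPM in LN. The 6 T cell markers summed to 1622 to 2143 CPM in LN and 25.1 to 58.8 CPM in skin, and the 5 B cell markers to 1049 to 2020 CPM in LN and 0.522 to 2.99 CPM in skin. Each tissue thus carried its own markers. A supplementary legend of the study counts 3 mice in each UVB group of nodes, but for skin and untreated nodes nothing read here says that libraries come from separate animals, so the p-values there measure only the spread between these samples.

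In GRCm38, the build of the deposited counts, 3 of the 4 receptor chains lie side by side on chromosome 16. *Ifnar2* (ENSMUSG00000022971, 91372783 to 91405589), *Ifnar1* (ENSMUSG00000022967, 91485238 to 91507441) and *Ifngr2* (ENSMUSG00000022965, 91547072 to 91565623), all on the plus strand, fall within 192.8 kb that hold 5 protein-coding genes. The other 2 genes there are *Il10rb*, a chain of the interleukin 10 and interferon lambda receptors, and *Gm21970*. *Ifngr1* (ENSMUSG00000020009) is on chromosome 10 from 19591949 to 19610229. *Jak1* (ENSMUSG00000028530) is on chromosome 4 from 101152367 to 101265282, and *Tyk2* (ENSMUSG00000032175) on chromosome 9 from 21104068 to 21131243. *Stat2* (ENSMUSG00000040033) is on chromosome 10 from 128270559 to 128292849 and *Irf9* (ENSMUSG00000002325) on chromosome 14 from 55603571 to 55610030. *Socs1* (ENSMUSG00000038037) is also on chromosome 16, from 10782240 to 10785536, far from the receptor chains. Exons of 4 members overlap another gene, and the sources do not state which strand was counted, so these counts are less certain. *Irf9* shares 123 bases with *Rnf31* on the same strand, a gene with 747 to 1512 counts in skin against 1120 to 3874 for *Irf9*. *Ifnar2* shares 315 bases with *Gm21970* (0 counts in skin and 0 to 7 in LN), *Tyk2* 554 bases with *1700084C06Rik* on the opposite strand (0 to 4 and 0 to 10 counts) and *Jak1* 4 bases with *Raver2*.

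The 250 bases before the RefSeq start sites (GRCm38.p6) are shown for *Stat2*, *Irf9* and *Socs1*, the 3 members that were higher in lesional skin, since interferon factors are known to bind such stretches. All 9 members had a promoter entry, with 10 windows in all because *Irf9* has 2 starts. Capitals mark matches to the interferon-stimulated response element (ISRE), searched as GAAA, then any 2 bases, then GAAA, on both strands.
Stat2, chr10:128270248-128270497, plus strand: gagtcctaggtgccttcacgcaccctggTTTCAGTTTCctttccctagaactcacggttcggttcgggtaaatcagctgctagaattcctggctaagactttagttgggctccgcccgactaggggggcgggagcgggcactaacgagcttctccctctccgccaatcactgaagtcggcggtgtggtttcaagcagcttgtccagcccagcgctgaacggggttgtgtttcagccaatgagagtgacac
Socs1, chr16:10785537-10785786, minus strand: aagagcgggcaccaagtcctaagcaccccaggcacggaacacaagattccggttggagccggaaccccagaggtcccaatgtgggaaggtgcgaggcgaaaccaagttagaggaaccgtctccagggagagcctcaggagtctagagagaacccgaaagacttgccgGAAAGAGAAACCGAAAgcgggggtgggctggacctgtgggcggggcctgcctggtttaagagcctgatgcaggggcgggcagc
Irf9 first start, chr14:55603735-55603984, plus strand: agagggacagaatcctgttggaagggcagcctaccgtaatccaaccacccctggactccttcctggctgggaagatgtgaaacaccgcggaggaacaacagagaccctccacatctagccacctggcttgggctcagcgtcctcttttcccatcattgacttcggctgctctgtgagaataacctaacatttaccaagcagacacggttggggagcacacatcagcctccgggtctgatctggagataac
Irf9 second start, chr14:55604329-55604578, plus strand: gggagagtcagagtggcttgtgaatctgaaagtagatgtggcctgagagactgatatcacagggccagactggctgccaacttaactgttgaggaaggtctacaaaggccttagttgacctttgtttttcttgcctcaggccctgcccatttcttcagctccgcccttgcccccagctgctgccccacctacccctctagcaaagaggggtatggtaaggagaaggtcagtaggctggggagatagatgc
*Stat2* holds the match on the opposite strand, 222 to 213 bases before its start. *Socs1* holds a pair of matches that overlap each other, 83 to 74 and 77 to 68 bases before its start, and neither *Irf9* window holds one. Of 32851 promoter windows of this length, 978 (2.98%) hold an ISRE match, and 2 of the 9 members do. The gamma-activated sequence (GAS), searched as TTCNNNGAA, which is its own reverse complement, is in 2306 windows (7.02%) and in 1 member, *Ifnar2*, as TTCCTGGAA 214 to 206 bases before the start. The windows of *Ifnar1*, *Ifngr1*, *Ifngr2*, *Jak1*, *Tyk2* and *Irf9* hold neither. Both *Irf9* windows lie inside the gene span given above, which begins at 55603571, and the bases before that position were not searched. A match is a description, not a site or a cause.

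Per kilobase of transcript, the members span a wide range of levels, and the order differs between the tissues. In WT skin, *Ifngr1* was the most abundant at 72.3 ± 16.0 RPKM (CPM per kilobase, mean ± SD, n = 3), followed by *Jak1* at 49.5 ± 6.80 and *Ifngr2* at 17.0 ± 1.44. *Irf9* (12.3 ± 0.900 RPKM), *Ifnar2* (10.0 ± 0.452) and *Ifnar1* (9.60 ± 0.719) came next, and the libraries of both type I receptor chains overlapped. *Stat2* (6.37 ± 0.904 RPKM) and *Tyk2* (5.00 ± 0.286) were lower, and *Socs1* was last at 1.03 ± 0.263 RPKM. The RNA of both chains of the interferon gamma receptor was thus more abundant in WT skin than that of either type I receptor chain. These are RNA levels of whole tissue, not amounts of receptor protein. Some places depend on the length used, since with all exons of a gene joined *Irf9* moves from rank 4 to rank 6. In L skin the order was *Ifngr1* (39.9 RPKM), *Jak1* (30.1), *Irf9* (23.2), *Ifngr2* (14.8), *Stat2* (12.9), *Ifnar1* (9.62), *Ifnar2* (8.05), *Tyk2* (4.93) and *Socs1* (3.67). Neighbours in that order overlapped between libraries except *Ifnar1* and *Ifnar2*, and with joined exons *Ifnar2* comes before *Ifnar1*, *Ifngr2* before *Irf9* and *Socs1* before *Tyk2*. NL skin (n = 2) had the WT order but for *Ifnar1* (9.30 RPKM) and *Ifnar2* (8.36 RPKM), and with joined exons its order was that of WT skin throughout.
In untreated WT LN, *Jak1* led at 244 ± 21.6 RPKM (n = 3), ahead of *Irf9* (73.2 ± 13.3) and *Ifngr1* (61.1 ± 1.82). The libraries of these 2 genes did not overlap (64.6 to 88.5 RPKM for *Irf9*, 59.1 to 62.5 for *Ifngr1*), but with all exons joined *Ifngr1* comes before *Irf9*, and *Ifngr2* before *Tyk2*. *Ifnar1* followed at 34.5 RPKM, then *Stat2* (26.5), *Ifnar2* (20.6), *Tyk2* (17.2), *Ifngr2* (14.4) and *Socs1* (6.85). *Jak1* was first and *Socs1* last in each of the 4 LN groups with either length. The tissues come from separate experiments, so no test was made between them. The plot of levels shows these orders library by library.

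**Figure D1:**
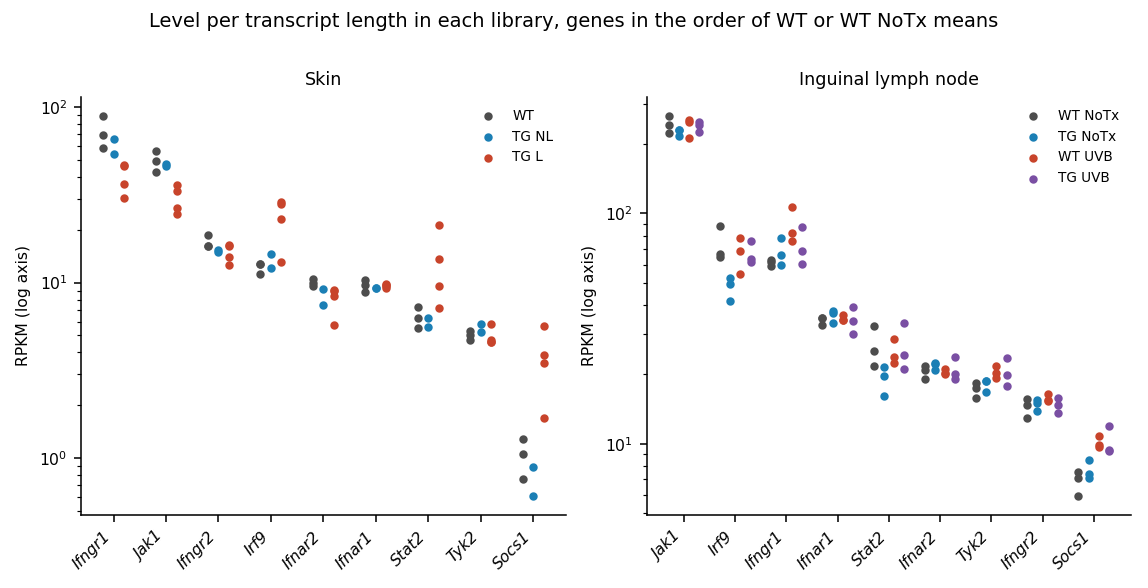
Level of the 9 genes in RPKM (log axis), each point 1 library, coloured by group, for skin on the left and lymph node on the right. Genes stand in the order of their means in WT skin and in untreated WT lymph node. *Ifngr1* leads in skin at a mean of 72.3 RPKM in WT and *Jak1* in lymph node at 244 RPKM, and *Socs1* has the lowest mean in each group.

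Lesional skin differed from WT skin in part of the route. *Stat2*, *Irf9* and *Socs1* rose, *Ifngr1* and *Jak1* fell, and *Ifnar1*, *Ifnar2*, *Ifngr2* and *Tyk2* did not pass the test. Thus 5 of 9 members had an adjusted p under 0.05 from edgeR (Benjamini-Hochberg over all 19101 tested genes), 3 higher and 2 lower. Among all tested genes 43.1% passed, 23.0% higher and 20.2% lower, so changes of this kind were common in L skin. The groups did not overlap in 5 of 9 members (*Ifnar2*, *Ifngr1*, *Jak1*, *Irf9* and *Socs1*) and in 49.4% of all tested genes. The median log2 fold change was -0.02 over the members and 0.06 over all tested genes, and its median size 0.72 and 0.56. Without WT replicate 9 or WT replicate 10, 3 members passed, with 6250 of 18934 and 6243 of 18989 tested genes. In bulk tissue, fewer cells of a type and less RNA per cell cannot be told apart.
Between L and NL skin, 2 of 9 members passed (*Jak1* lower, *Socs1* higher), against 25.0% of tested genes, 13.2% higher and 11.8% lower. The median log2 fold change was -0.04 over the members and 0.03 over all tested genes, with median sizes of 0.59 and 0.46. This comparison rests on 2 NL libraries and shares its L libraries with the one above. Without NL replicate 2 or NL replicate 3, 0 members passed in edgeR and the count over all genes fell from 4782 to 1470 and 1182, where each fit assumes that the lone NL library varies like the other groups. With all libraries 5 members and 7448 of the 19101 genes had an unadjusted p under 0.05, and 4 members and 6200 genes passed in DESeq2.
Between NL and WT skin 0 of 9 members and 0 (0%) of the tested genes passed in edgeR. At an unadjusted p under 0.05 there were 0 members and 1465 genes, and DESeq2 called 0 members and 80 genes. The members' log2 fold changes ran from -0.46 for *Socs1* to 0.13 for *Tyk2*, with adjusted p from 0.772 to 0.960, and their median was -0.10 against -0.00114 over all tested genes.

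**Figure D2:**
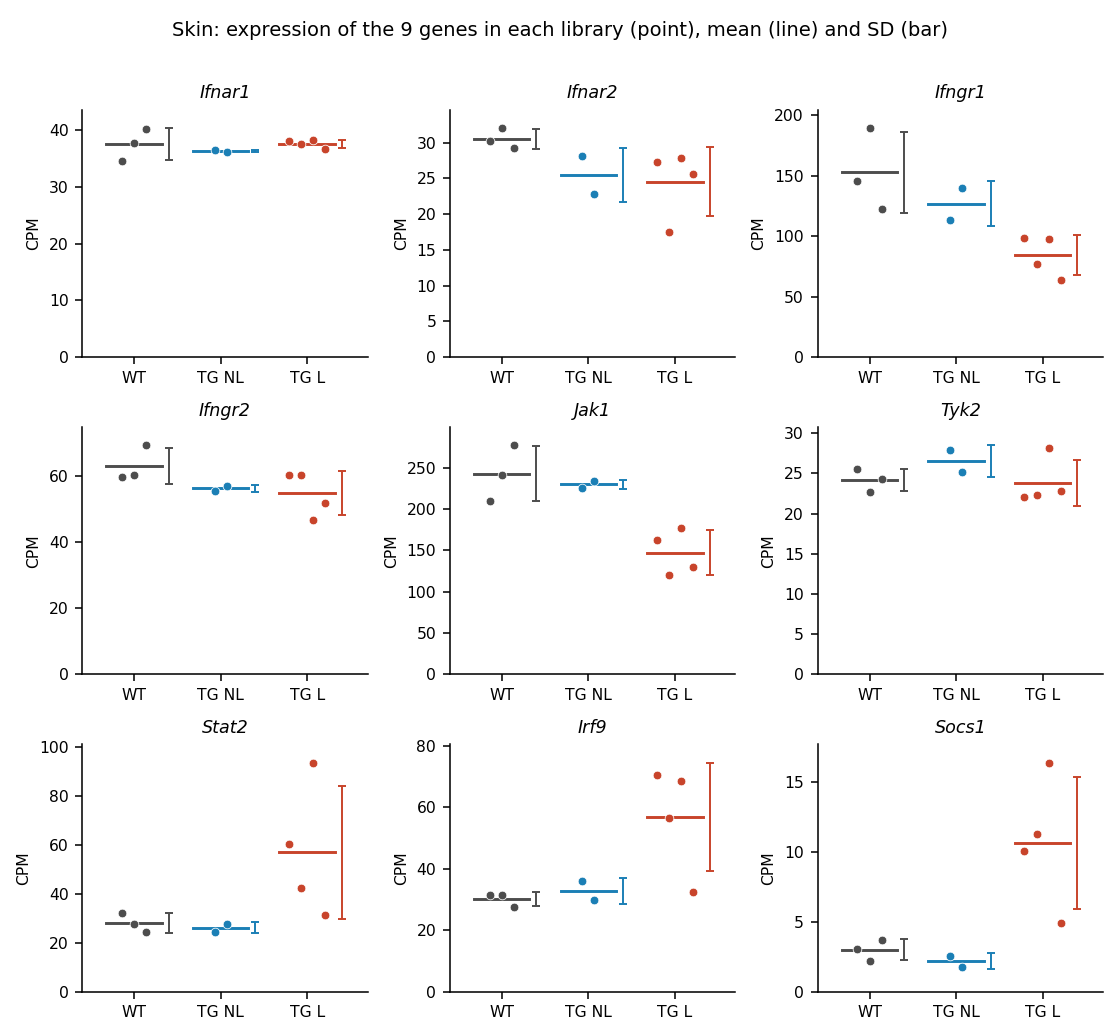
Expression of each of the 9 genes in CPM in the 9 skin libraries (points), with the mean of each group as a line and its SD as a bar beside it (WT n = 3, TG NL n = 2, TG L n = 4). All 4 L libraries lie below all WT libraries for *Jak1* (120 to 177 against 210 to 277 CPM) and above them for *Socs1* (4.90 to 16.4 against 2.21 to 3.73 CPM), and *Ifnar1* stays between 34.6 and 40.2 CPM throughout.

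Neither chain of the type I receptor, which binds IFN-kappa, passed in skin, though *Ifnar2* was lower in all TG than in all WT libraries. *Ifnar1*, whose chain binds TYK2, was at 34.6, 37.8 and 40.2 CPM in WT skin, 36.5 and 36.2 in NL skin and 38.0, 37.6, 38.2 and 36.6 in L skin. The groups overlapped completely, and the log2 fold change of L against WT skin was 0.00, with a 95% interval from -0.18 to 0.19 (adjusted p = 0.977). *Ifnar2*, the chain that binds JAK1 and STAT2, was at 30.3, 32.0 and 29.3 CPM in WT skin, 28.2 and 22.8 in NL skin and 27.3, 17.5, 27.8 and 25.5 in L skin. All 4 L libraries and both NL libraries were below the WT libraries, with the lowest value in L replicate 5. Its log2 fold change was -0.31 (SE 0.17, adjusted p = 0.154) against WT and -0.05 (adjusted p = 0.861) against NL skin, so neither passed. *Il10rb*, the neighbour of both genes on chromosome 16, had a log2 fold change of -0.10 (adjusted p = 0.610) in L against WT skin.

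Of the interferon gamma receptor, the ligand-binding chain fell in lesional skin. *Ifngr1* was at 146, 189 and 123 CPM in WT skin, 114 and 140 in NL skin and 98.5, 77.4, 97.5 and 64.1 in L skin. All 4 L libraries were below all WT and NL libraries, and the NL libraries lay within or just under the WT range. *Ifngr1* fell by 0.86 on the log2 scale against WT (SE 0.19, 95% interval -1.30 to -0.42, adjusted p = 0.00778). Against NL skin its log2 fold change of -0.59 (SE 0.22, adjusted p = 0.0788) did not pass, and that of NL against WT was -0.27 (adjusted p = 0.799). *Ifngr2*, the signalling chain that binds JAK2, was at 59.6, 60.3 and 69.2 CPM in WT skin, 55.4 and 57.1 in NL skin and 60.4, 60.2, 46.8 and 51.7 in L skin. Its groups overlapped, with a log2 fold change of -0.20 (SE 0.11, adjusted p = 0.180) against WT skin.

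Of the kinases, *Jak1*, which serves both receptors, fell and *Tyk2*, which serves the type I receptor, did not pass. *Jak1* was at 210, 241 and 277 CPM in WT skin, 226 and 234 in NL skin and 163, 120, 177 and 130 in L skin. WT and NL libraries overlapped, and all 4 L libraries were below every one of them. *Jak1* fell by 0.72 on the log2 scale against WT skin (SE 0.16, 95% interval -1.08 to -0.36, adjusted p = 0.00665) and by 0.64 against NL skin (SE 0.18, adjusted p = 0.0295). The call against NL skin was lost without NL replicate 2 (adjusted p = 0.129), NL replicate 3 (0.164) or L replicate 7 (0.0511), and with only these groups in the fit (0.0581, where the alternatives ran from 0.00794 to 0.0581). *Tyk2* was at 25.5, 22.7 and 24.3 CPM in WT skin, 27.9 and 25.1 in NL skin and 22.1, 22.2, 28.1 and 22.8 in L skin. L replicate 6 was the highest of all 9 and the other L libraries were near the WT values, with a log2 fold change of -0.02 (95% interval -0.28 to 0.24, adjusted p = 0.902) against WT skin.

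*Stat2* and *Irf9*, whose products act together in ISGF3, rose in lesional skin, unevenly among its libraries. *Stat2*, which carries the activating domain of the complex, was at 32.1, 27.8 and 24.1 CPM in WT skin, 24.5 and 27.8 in NL skin and 60.0, 42.3, 93.4 and 31.4 in L skin. L replicates 4, 5 and 6 were above all WT and NL libraries, while L replicate 7 lay just under the highest WT library. *Stat2* rose by 1.02 on the log2 scale against WT skin (SE 0.34, 95% interval 0.24 to 1.80, adjusted p = 0.0395). This call was lost without WT replicate 8 (adjusted p = 0.0713), 9 (0.103) or 10 (0.121), without NL replicate 2 (0.0609) or 3 (0.0628), and without L replicate 4 (0.0679) or 6 (0.0514, log2 fold change 0.67). It was also lost without the filter on low counts (adjusted p = 0.0745) and with the compared groups alone (0.0691), and the 7 alternatives ran from 0.00923 to 0.0745.
*Irf9*, the subunit that recognises the ISRE, was at 31.5, 31.6 and 27.7 CPM in WT skin, 35.9 and 29.8 in NL skin and 70.5, 56.6, 68.6 and 32.3 in L skin. All 4 L libraries were above all WT libraries, but L replicate 7 was below NL replicate 2. *Irf9* rose by 0.91 on the log2 scale against WT skin (SE 0.25, 95% interval 0.35 to 1.48, adjusted p = 0.0170), and this was lost without WT replicate 9 (adjusted p = 0.0502) or WT replicate 10 (0.0630). Against NL skin, *Stat2* had a log2 fold change of 1.12 (SE 0.39, adjusted p = 0.0704) and *Irf9* of 0.80 (SE 0.28, adjusted p = 0.0711), and neither passed. Both passed there without L replicate 7, at adjusted p = 0.0228 for *Stat2* and 0.00399 for *Irf9*. DESeq2 also called both, with adjusted p = 0.0146 for *Stat2* (0.0146 to 0.133 over the alternatives) and 0.0282 for *Irf9* (0.0282 to 0.142).

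The inhibitor *Socs1* had the largest change of the 9 genes in lesional skin, from a low base. It had 135, 93 and 151 counts in WT skin, 135 and 72 in NL skin and 554, 458, 745 and 272 in L skin. That is 3.08, 2.21 and 3.73 CPM in WT, 2.58 and 1.77 in NL and 10.1, 11.3, 16.4 and 4.90 in L skin. All 4 L libraries were above every other skin library, with L replicate 7 again the lowest of the L group and L replicate 6 the highest. *Socs1* rose 3.55-fold against WT skin (log2 fold change 1.83, SE 0.40, 95% interval 0.92 to 2.73, adjusted p = 0.00646), and the call held in all 7 alternatives and in all 9 fits that left out a library. Against NL skin it rose 4.89-fold (log2 fold change 2.29, SE 0.48, adjusted p = 0.0104), which was lost without NL replicate 2 (adjusted p = 0.0597) or NL replicate 3 (0.101).

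Ratios within a library do not depend on how libraries are scaled. The log2 ratio of *Tyk2* to *Jak1* counts was -3.05, -3.41 and -3.51 in WT skin, -3.02 and -3.22 in NL skin and -2.89, -2.43, -2.65 and -2.51 in L skin. All 4 L libraries were above all others, so the balance of the kinases moved toward *Tyk2* in each of them. For *Ifngr2* over *Ifngr1* the ratio was -1.29, -1.65 and -0.83 in WT, -1.04 and -1.29 in NL and -0.71, -0.36, -1.06 and -0.31 in L skin, and L replicate 6 overlapped the WT range. For *Ifnar2* over *Ifnar1* it was -0.19, -0.24 and -0.46 in WT, -0.37 and -0.67 in NL and -0.48, -1.11, -0.46 and -0.52 in L skin. L replicate 6 and WT replicate 10 were nearly equal there, and L replicate 5 stood far below the rest. The partners *Stat2* and *Irf9* showed no separation, with ratios of 0.03, -0.19 and -0.20 in WT, -0.55 and -0.10 in NL and -0.23, -0.42, 0.45 and -0.04 in L skin. These ratios were not tested.

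**Figure D3:**
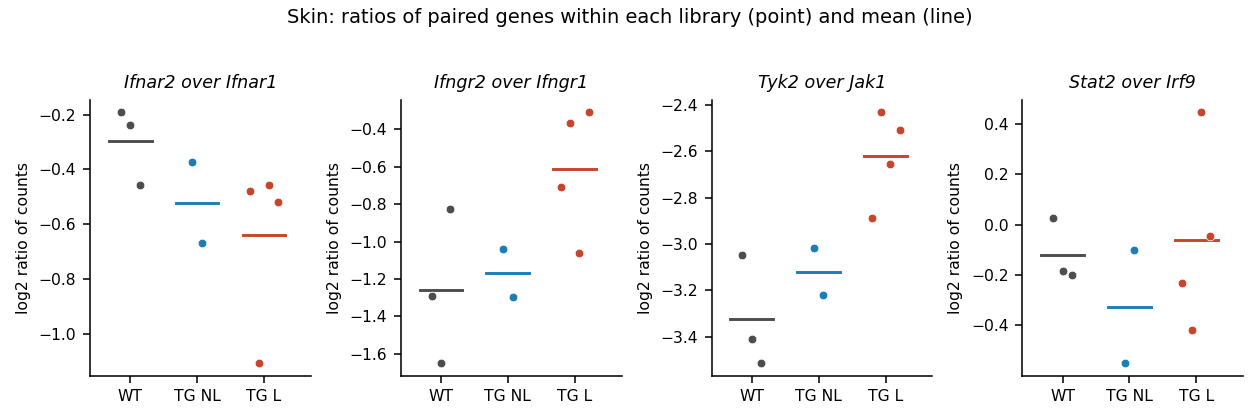
Log2 ratio of counts of paired genes in each skin library (points), with group means as lines. *Tyk2* over *Jak1* separates the 4 L libraries (-2.89 to -2.43) from the WT and NL libraries (-3.51 to -3.02), while the groups overlap for *Ifngr2* over *Ifngr1* and for *Stat2* over *Irf9*.

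The rest of the pathway was read from fixed lists. Of 14 interferon ligands, 10 had 0 counts in all skin libraries and 2 were tested, *Ifnk* and *Ifng*. Both passed in edgeR in L against WT skin, *Ifnk*, the gene of the transgene, at a log2 fold change of 6.19 (adjusted p = 0.0191). Most counts of both genes were in L skin, so the low-count filter kept them largely through that group. The 2 calls are therefore not a share of the ligands. *Ifng*, the ligand of the gamma receptor, had 5, 0 and 4 counts in WT skin, 12 and 0 in NL skin and 117, 34, 203 and 5 in L skin. L replicate 7 was thus at the WT level, and the log2 fold change was 4.67 (SE 1.51, adjusted p = 0.0356). The *Ifng* call was lost without WT replicate 8 (adjusted p = 0.0838), 9 (0.102) or 10 (0.0915), without L replicate 4 (0.0540) or 6 (0.0725), and with no filter on low counts (0.0707, where the alternatives ran from 0.00115 to 0.0707). The count of ligands was 1 without WT replicate 8, 9 or 10 or L replicate 5 or 6, and 0 without L replicate 4. The count was also 1 with no filter or with these groups alone, and *Ifng* was not tested where at least 10 counts in every library were asked for. Against NL skin 0 of 2 ligands passed in edgeR. *Ifng* had a log2 fold change of 3.93 there (adjusted p = 0.119), and it passed in DESeq2 (adjusted p = 0.0207, where the alternatives ran from 0.0207 to 0.208) and without L replicate 7 (0.0488).
Of 10 other receptors, kinases and STATs, 3 fell in L against WT skin, where 20.2% of all tested genes were called lower. The growth hormone and cytokine factors *Stat5b* (log2 fold change -1.29, adjusted p = 0.000133) and *Stat5a* (-0.89, adjusted p = 0.00196) fell against WT skin, each lower in 4 of 4 L libraries. *Jak3*, named after its values were seen, was the last to fall. Against NL skin *Stat5b* (-1.04, adjusted p = 0.00139) and *Stat5a* (-0.85, adjusted p = 0.00774) were the 2 that fell, and without NL replicate 2 *Stat5a* did not pass (0.0764). *Jak2*, the second kinase of the gamma receptor, had a log2 fold change of -0.11 (adjusted p = 0.420) in L against WT skin.

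Among 16 other inhibitors, 3 rose and 4 fell in L against WT skin (median log2 fold change 0.08), against 23.0% and 20.2% of all tested genes. *Socs7* fell by 1.43 on the log2 scale (adjusted p = 4.71e-05) and *Socs2*, a brake on growth hormone signals, by 1.33 (adjusted p = 0.00397), each lower in 4 of 4 L libraries. *Cish*, a brake on STAT5, rose by 1.00 (adjusted p = 0.00674, higher in 4 of 4 L libraries). *Socs3* did not pass (log2 fold change -0.04, SE 0.43, adjusted p = 0.946). The others, named after their values were seen, were the phosphatases *Ptpn1* and *Ptpn2*, higher, and *Socs6* and *Pias2*, lower, and without L replicate 7 the list had 5 higher. Against NL skin 2 of 16 rose and 2 fell, near the 13.2% and 11.8% of all tested genes, with *Socs7* (log2 fold change -1.20, adjusted p = 0.000424), *Pias3* (-0.67, adjusted p = 0.0192) and *Ptpn1* (0.54, adjusted p = 0.00577) by the naming rule and *Ptpn2* named after its values were seen. Without NL replicate 2 there were 0 higher and 1 lower (*Ptpn1* at an adjusted p of 0.0707, *Pias3* at 0.0873), and without NL replicate 3 there was 1 of each (*Pias3* at 0.144).

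Of 26 ISGF3 targets, 7 rose, 0 fell and 19 did not pass in edgeR against WT skin, where 23.0% of all tested genes were called higher, with a median log2 fold change of 0.89 (0.06 over all tested genes), and DESeq2 called 11 higher. *Isg15*, a ubiquitin-like modifier, rose by 2.51 (SE 0.57, adjusted p = 0.00936), *Oas1g* by 2.45 (adjusted p = 0.00627) and *Oas2* by 2.11 (adjusted p = 0.0128), each on the log2 scale and in 4 of 4 L libraries. The *Oas* genes make sensors of viral RNA. Over all 26 ISGF3 targets, summed expression was 459, 426 and 339 CPM in WT skin and 228 and 405 CPM in NL skin. In L skin the sum was 1036, 467, 1123 and 411 CPM. The most abundant of these targets was *Bst2*. L replicates 4 and 6 stood far above the rest in this sum, and L replicate 7 lay within the WT range. The list count was 3 without WT replicate 8 and 3 without WT replicate 10, and *Oas2* was lost without WT replicate 8 (adjusted p = 0.0508). Against NL skin 6 ISGF3 targets rose and 20 did not pass (median 1.40, with 13.2% of all tested genes called higher), *Oas1g* by 2.94 (adjusted p = 0.0127), *Isg15* by 2.93 (adjusted p = 0.0192) and *Oas2* by 2.51 (adjusted p = 0.0231). That count was 0 without NL replicate 2 or 3, 10 without L replicate 5, 11 without L replicate 7, 15 in DESeq2 and 1 with these groups alone. Without NL replicate 2 or 3 the adjusted p was 0.111 and 0.0747 for *Oas1g*, 0.135 and 0.0693 for *Isg15*, and 0.161 and 0.111 for *Oas2*.
Of 23 interferon gamma targets, 14 rose, 0 fell and 9 did not pass against WT skin in edgeR (23.0% of all tested genes were called higher), with a median of 1.57. The chemokines *Cxcl11* (log2 fold change 6.32, adjusted p = 0.0100), *Cxcl9* (5.95, adjusted p = 0.00198) and *Cxcl10* (4.75, adjusted p = 0.0168), which draw T cells, had the largest changes and were higher in 4 of 4 L libraries. The list summed to 673, 600 and 551 CPM in WT skin, 722 and 628 in NL skin and 2145, 1278, 3384 and 770 in L skin, with *H2-Ab1* the most abundant. All L libraries exceeded all others in this sum, again with replicate 6 the highest and replicate 7 the lowest. The count was 6 without WT replicate 9, 4 without WT replicate 10 and 9 without the filter on low counts, and *Cxcl10* was lost without WT replicate 10 (adjusted p = 0.0544). Against NL skin 6 rose and 17 did not pass (median 1.67), with *Cxcl11* at 6.12 (adjusted p = 0.0353), *Cxcl9* at 5.85 (adjusted p = 0.00928) and *Cxcl10* at 4.97 (adjusted p = 0.0459). That count was 0 without NL replicate 2 or 3, 3 without WT replicate 8 or 9, 10 without L replicate 5, 16 without L replicate 7, 17 in DESeq2, and 1 with no filter or with these groups alone. Without NL replicate 2 or 3 the adjusted p was 0.169 and 0.199 for *Cxcl11*, 0.0581 and 0.0883 for *Cxcl9*, and 0.132 and 0.229 for *Cxcl10*. *Cxcl10* was lost, too, without WT replicate 8 (0.0624) or 10 (0.0683) or L replicate 4 (0.0587) or 6 (0.0693), and *Cxcl11* without WT replicate 9 (0.0539). Between NL and WT skin 0 genes of the 5 pathway lists passed in edgeR. It was not tested whether the ISGF3 and interferon gamma lists are each specific to 1 interferon. Which interferon raised a gene was not tested in skin or LN.

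Tissue make-up differed between the groups as well. All 7 hair shaft markers were higher in L skin, with a sum of 0.173 to 0.616 CPM in WT, 0.440 and 1.23 in NL and 1572, 5255, 3886 and 4862 in L skin (most abundant *Krt33a*). Muscle markers summed to 19038, 25741 and 27570 CPM in WT, 20762 and 23835 in NL and 5557, 18.3, 248 and 1232 in L skin, where 1 of 5 fell (*Acta1*, also the most abundant). Adipocyte markers summed to 4094, 3425 and 2279 CPM in WT, 2717 and 2038 in NL and 865, 114, 1071 and 1324 in L skin, where 1 of 4 fell (*Adipoq*, also the most abundant). L skin thus held more hair shaft RNA and less muscle and fat RNA in all 4 libraries. Endothelial markers summed to 234, 163 and 181 CPM in WT, 176 and 138 in NL and 87.7, 67.8, 126 and 141 in L skin, with *Pecam1* the most abundant and 2 of 3 lower (*Cdh5* and *Kdr*). Fibroblast markers ranged from 3833 to 6481 CPM in WT, 2488 to 4334 in NL and 2845 to 7379 in L skin (most abundant *Col3a1*), with 1 of 5 lower (*Dcn*). Keratinocyte markers summed to 12829, 11374 and 10550 CPM in WT, 19886 and 18957 in NL and 25544, 18867, 21404 and 9779 in L skin, led by *Krt10*, with 2 of 6 higher (*Krt14* and *Krt1*). L replicate 7, low in *Socs1*, *Stat2* and *Irf9* for its group, was also the lowest of the L libraries in keratinocyte markers.
Of the immune markers, some of T cells, dendritic cells and neutrophils were called higher in L than in WT skin, as were 23.0% of all tested genes. T cell markers summed to 35.3, 25.5 and 33.1 CPM in WT, 30.9 and 42.3 in NL and 46.5, 56.2, 58.8 and 25.1 in L skin, led by *Cd3g*, with 3 of 6 higher (*Cd4*, *Cd8a* and *Trac*). Dendritic cell markers summed to 9.33, 9.78 and 8.66 CPM in WT, 10.8 and 9.17 in NL and 20.3, 22.5, 21.6 and 11.0 in L skin, led by *Itgax*, with 2 of 4 higher (*Xcr1* and *Ccr7*). Neutrophil markers summed to 14.6, 19.3 and 9.84 CPM in WT, 11.9 and 12.1 in NL and 542, 132, 66.9 and 55.3 in L skin, with *S100a9* the most abundant and 2 of 4 higher (*S100a8* and *S100a9*). *Csf3r* and *Retnlg* of that list did not pass, and which cells held the *S100a8* and *S100a9* RNA was not tested. L replicate 7 was the lowest of the L libraries for T cells and dendritic cells, and for T cells it was below every WT library. Plasma cell markers summed to 413 to 449 CPM in WT, 579 and 605 in NL and 687 to 1140 in L skin, led by *Sdc1*, the 1 of 3 that rose and one that keratinocytes also express. Of the lymph node stroma markers 1 of 3 rose (*Ccl19*), and 0 of 5 B cell, 0 of 5 macrophage and 0 of 3 NK cell markers passed in edgeR. Against NL skin all 7 hair shaft, 2 dendritic cell (*Flt3* and *Ccr7*) and 2 neutrophil markers (*S100a8* and *S100a9*) rose, with 1 each for T cells (*Cd4*), NK cells (*Ncr1*) and stroma (*Ccl19*). The marker genes in these sentences were named after their values were seen, and none of the lists with a call was at 0 for a defining marker in all skin libraries, except for 1 gene copy of the stroma list. Their part in the changes of the 9 genes was not tested.

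In lymph nodes *Socs1* rose with UVB in WT mice, and the other 8 members did not pass. That is 1 of 9 members, higher, against 4.98% of the 16173 tested genes, 2.92% higher and 2.06% lower. WT libraries with and without UVB did not overlap in 3 of 9 members (*Ifngr1*, *Tyk2* and *Socs1*) and in 37.1% of tested genes. The members' median log2 fold change was 0.03 and that of all tested genes -0.00485, with median sizes of 0.12 and 0.25. The count over all genes, 805, depended on single libraries. It was 277, 190 and 7 without WT NoTx replicates 1, 2 and 3, 346 and 281 without TG NoTx replicates 4 and 6, 493, 0 and 29 without WT UVB replicates 7, 8 and 9, and 1583 and 2644 without TG UVB replicates 10 and 12. The member count was 0 without WT NoTx replicate 1, 2 or 3, TG NoTx replicate 4 or 6 or WT UVB replicate 7, 8 or 9, and 2 without TG UVB replicate 10 or 12.
With UVB in *Ifnk* TG mice 0 of 9 members and 0 (0%) of tested genes passed in edgeR, with 3 members and 1507 genes at an unadjusted p under 0.05 and 0 members and 137 genes in DESeq2. Without TG UVB replicate 12 edgeR called 236 genes. The groups did not overlap in 2 of 9 members (*Irf9* and *Socs1*) and in 13.3% of tested genes. The members' median log2 fold change was 0.08 against 0.02 over all tested genes.
Between *Ifnk* TG and WT nodes without UVB 0 of 9 members and 0 (0%) of tested genes passed in edgeR, 2 members and 549 genes had an unadjusted p under 0.05, and DESeq2 called 0 members and 2 genes. The groups did not overlap in 2 of 9 members (*Stat2* and *Irf9*) and in 10.5% of tested genes. The members' median log2 fold change was 0.07 against -0.00375 over all. After UVB the genotypes again gave 0 of 9 members and 0 (0%) of tested genes in edgeR, with 0 members and 1131 genes at an unadjusted p under 0.05 and 0 members and 19 genes in DESeq2. The interaction, which compares the UVB response of the genotypes, called 0 of 9 members and 0 (0%) of tested genes in edgeR, with 1 member and 881 genes at an unadjusted p under 0.05 and 0 members and 8 genes in DESeq2. Leaving out WT NoTx replicate 3 gave 1 gene for the genotypes without UVB and 1 for the interaction, and leaving out TG UVB replicate 10 gave 2 genes for the genotypes after UVB. These comparisons share libraries with one another, so their values are given side by side.

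**Figure D4:**
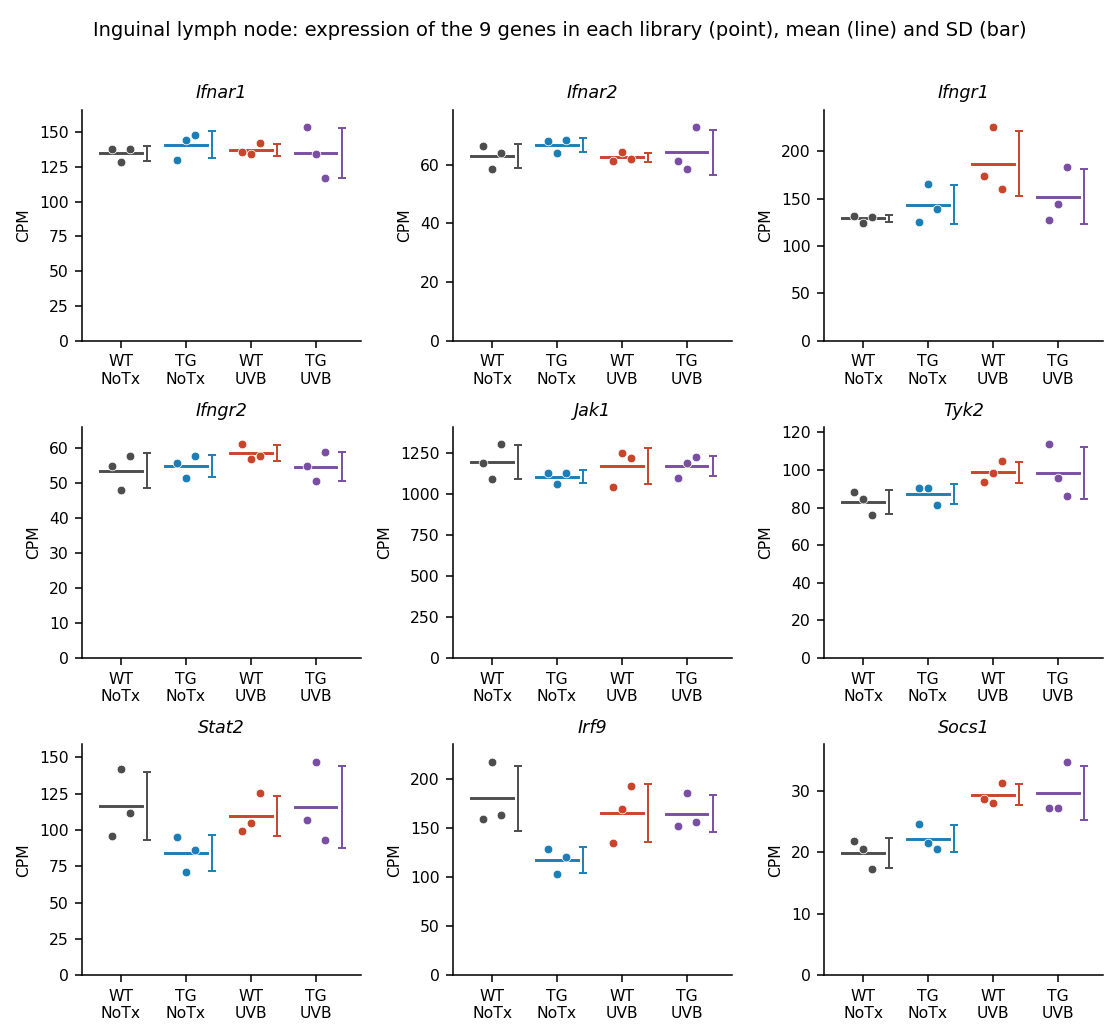
Expression of each of the 9 genes in CPM in the 12 lymph node libraries (points), with the mean of each group as a line and its SD as a bar (n = 3 in each group). *Socs1* is higher in all UVB libraries (27.2 to 34.8 CPM) than in all untreated libraries (17.2 to 24.7 CPM), and *Irf9* is lowest in the untreated TG group (103 to 129 CPM).

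The receptor chains other than *Ifngr1* were level across the LN groups. *Ifnar1* stayed between 117 and 154 CPM over all 12 libraries, *Ifnar2* between 58.4 and 72.8 and *Ifngr2* between 48.0 and 61.1, with the groups overlapping. *Ifngr1* was at 132, 125 and 130 CPM in WT NoTx, 126, 166 and 139 in TG NoTx, 174, 225 and 161 in WT UVB and 128, 145 and 184 in TG UVB nodes. All 3 WT UVB libraries were above all 3 WT NoTx libraries, while the TG groups overlapped. In WT nodes the log2 fold change with UVB was 0.53 (SE 0.15, adjusted p = 0.0581), which did not pass. It did pass in DESeq2 (adjusted p = 0.0138) and with the compared groups alone (0.0124), where the alternatives ran from 0.0124 to 0.0657, and without TG UVB replicate 10 (0.0403) or 12 (0.0197). In TG nodes the log2 fold change was 0.08 (adjusted p = 0.907), and the interaction was -0.45 (SE 0.21, adjusted p = 0.848).

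Neither kinase passed in LN. *Jak1* stayed between 1044 and 1306 CPM, with overlapping groups and a log2 fold change with UVB of -0.03 (95% interval -0.25 to 0.19, adjusted p = 0.882) in WT nodes. *Tyk2* was at 88.4, 84.5 and 76.2 CPM in WT NoTx, 90.4, 90.5 and 81.2 in TG NoTx, 93.5, 98.3 and 105 in WT UVB and 114, 95.7 and 86.1 in TG UVB nodes. The WT UVB libraries were above the WT NoTx libraries, with a log2 fold change of 0.25 (SE 0.10, adjusted p = 0.143), and the TG groups overlapped. The ratio of *Tyk2* to *Jak1*, on the log2 scale, was -4.10 to -3.70 in WT NoTx, -3.80 to -3.55 in TG NoTx, -3.67 to -3.48 in WT UVB and -3.83 to -3.28 in TG UVB nodes. So the WT UVB libraries lay just above the WT NoTx libraries in this ratio. For *Ifngr2* over *Ifngr1* the WT UVB libraries (-1.98 to -1.48) were all below the WT NoTx libraries (-1.38 to -1.17), and the TG groups overlapped. For *Ifnar2* over *Ifnar1* all 4 groups overlapped.

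The ISGF3 genes were lowest in untreated *Ifnk* TG nodes, a pattern that did not pass the test. *Irf9* was at 159, 218 and 164 CPM in WT NoTx, 129, 103 and 121 in TG NoTx, 134, 170 and 193 in WT UVB and 152, 186 and 157 in TG UVB nodes. All 3 TG NoTx libraries were below all 9 others. Against WT NoTx the log2 fold change was -0.61 (SE 0.15, adjusted p = 1), and with UVB in TG nodes it was 0.49 (SE 0.15, adjusted p = 0.364). *Stat2* was at 95.7, 142 and 112 CPM in WT NoTx, 94.9, 70.9 and 86.4 in TG NoTx, 98.9, 105 and 125 in WT UVB and 107, 147 and 92.9 in TG UVB nodes. TG NoTx again lay below WT NoTx in 3 of 3 libraries, by a narrow gap, and overlapped TG UVB. Its log2 fold change was -0.47 (SE 0.19, adjusted p = 1) between the untreated genotypes and 0.46 (SE 0.19, adjusted p = 0.476) with UVB in TG nodes. With UVB in WT nodes the values were -0.12 (adjusted p = 0.647) for *Irf9* and -0.09 (adjusted p = 0.802) for *Stat2*. The interaction was 0.61 (SE 0.21) for *Irf9* and 0.55 (SE 0.26) for *Stat2*, both at an adjusted p of 0.848. The log2 ratio of *Stat2* to *Irf9* was -0.73 to -0.55 in WT NoTx and -0.54 to -0.44 in TG NoTx nodes, which just do not overlap, so *Irf9* was the lower of the pair relative to WT, and this ratio was not tested.

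*Socs1* rose with UVB in WT nodes. It was at 21.9, 20.6 and 17.2 CPM in WT NoTx, 24.7, 21.5 and 20.6 in TG NoTx, 28.7, 28.1 and 31.4 in WT UVB and 27.2, 27.2 and 34.8 in TG UVB nodes. Every UVB library was above every untreated library, in both genotypes. In WT nodes *Socs1* rose 1.48-fold (log2 fold change 0.56, SE 0.13, 95% interval 0.29 to 0.83, adjusted p = 0.0325). In TG nodes the log2 fold change was 0.42 (SE 0.13, adjusted p = 0.339), and the interaction was -0.14 (SE 0.18, adjusted p = 0.890), so a difference between the genotypes was not shown. The call in WT nodes held in all 6 alternatives (adjusted p from 0.00210 to 0.0371). It was lost without WT NoTx replicate 1 (adjusted p = 0.0537), 2 (0.0706) or 3 (0.155), TG NoTx replicate 4 (0.0503) or 6 (0.0541), or WT UVB replicate 7 (0.0517), 8 (0.128) or 9 (0.101). After UVB the genotypes differed by 0.02 on the log2 scale for *Socs1* (adjusted p = 0.980) and by -0.30 for *Ifngr1* (adjusted p = 0.723).

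**Figure D5:**
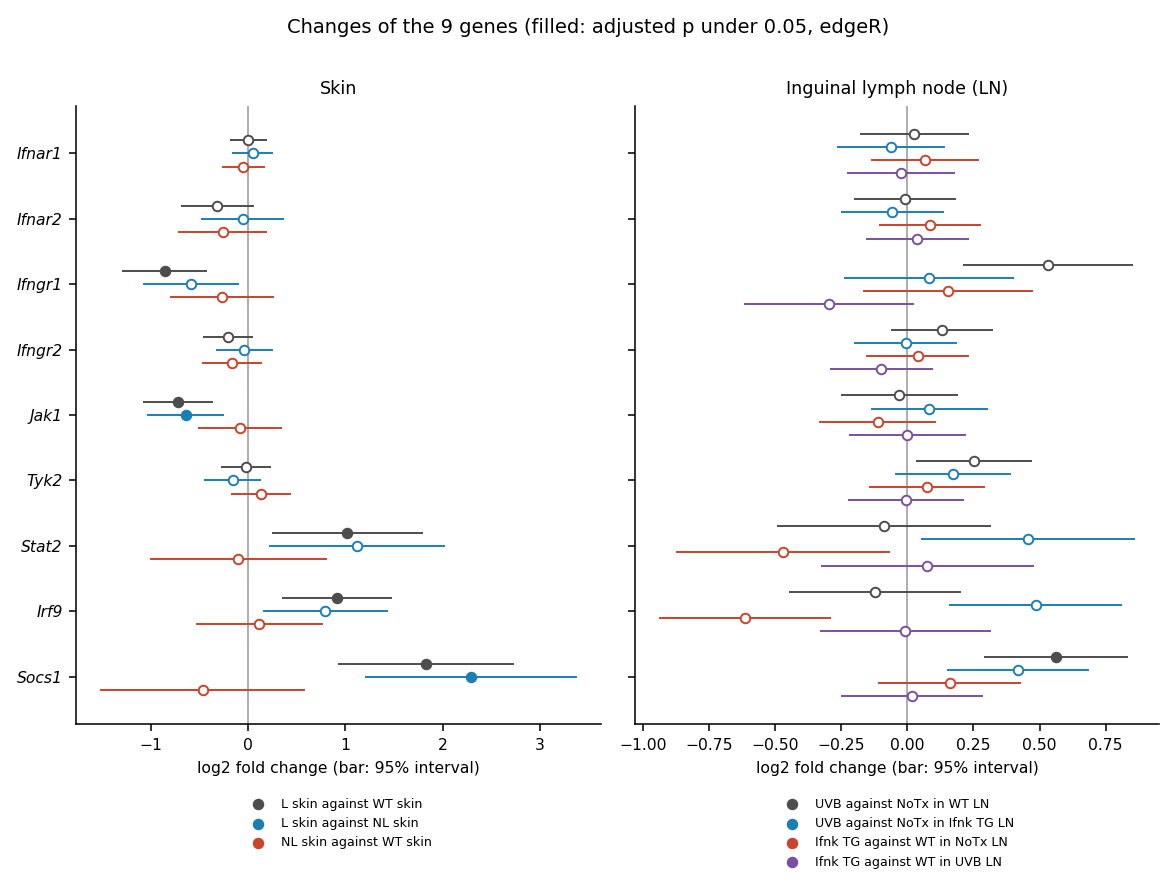
Log2 fold change of each of the 9 genes with its 95% interval, for 3 skin comparisons (left) and 4 lymph node comparisons (right), with filled points where edgeR's adjusted p is under 0.05. In skin *Socs1* (1.83 and 2.29) and *Jak1* (-0.72 and -0.64) pass against WT and NL skin, and in lymph node only *Socs1* with UVB in WT nodes passes (0.56). The horizontal scales of the panels differ.

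The same lists were read in LN. Of the 14 ligands 11 had 0 counts in all LN libraries and 1 was tested, *Ifng*. It had 28, 17 and 11 counts in WT NoTx, 27, 25 and 21 in TG NoTx, 44, 55 and 52 in WT UVB and 31, 24 and 27 in TG UVB nodes. The WT UVB libraries were above all others, and *Ifng* rose by 1.51 on the log2 scale with UVB in WT nodes (SE 0.35, adjusted p = 0.0343). Its interaction was -1.18 (SE 0.49, adjusted p = 0.848) and its value between the genotypes after UVB was -0.93 (adjusted p = 0.673). Of the 10 other receptors, kinases and STATs only *Jak3*, a kinase of lymphocyte cytokine receptors, passed with UVB in WT nodes, and it rose by 0.51 (SE 0.10, adjusted p = 0.0262, higher in 3 of 3 UVB libraries). Of the 21 tested interferon gamma targets 3 rose (2.92% of all tested genes were called higher), *Irgm2* by 0.75 (adjusted p = 0.0318), *Gbp3* by 0.56 (adjusted p = 0.0278) and *Irf1* by 0.53 (adjusted p = 0.0303), each higher in 3 of 3 UVB libraries, and the list's median was 0.27 (DESeq2 called 7).
These calls too rested on single libraries. Without WT NoTx replicate 3 or WT UVB replicate 8 or 9, 0 genes of these lists passed, and the highest adjusted p in such fits was 0.158 for *Ifng*, 0.128 for *Jak3*, 0.145 for *Irgm2*, 0.139 for *Gbp3* and 0.144 for *Irf1*. *Ifng* was also lost without WT NoTx replicate 2 (0.0898) or TG NoTx replicate 4 (0.0505) or 6 (0.0541), and *Jak3* without WT NoTx replicate 1 (0.0502) or 2 (0.0528). The count of gamma targets was 0 without WT NoTx replicate 1, 5 without WT NoTx replicate 2 and 6 without TG UVB replicate 12. With the compared groups alone that count was 5. *Irf1* was lost without TG NoTx replicate 6 (0.0502). *Socs3* (log2 fold change 0.38, adjusted p = 0.0960) and *Jak2* (0.14, adjusted p = 0.330) did not pass with UVB in WT nodes.
Of the 25 tested ISGF3 targets and 16 other inhibitors 0 passed with UVB in WT nodes in edgeR, and DESeq2 called 2 ISGF3 targets lower and 2 inhibitors higher. In edgeR, 2 ISGF3 targets were lower without WT NoTx replicate 1 and 1 without TG UVB replicate 10, 11 or 12. Of the inhibitors, 1 was higher without WT UVB replicate 7 or TG UVB replicate 10 and 2 without TG UVB replicate 12. With the compared groups alone, edgeR called 1 ISGF3 target lower and 2 inhibitors higher. In the other LN comparisons 0 genes of the 5 lists passed in edgeR, and for the interaction DESeq2 called 1 ISGF3 target higher. With UVB in TG nodes DESeq2 called 1 ISGF3 target and 9 gamma targets higher, and edgeR called 7 gamma targets without TG UVB replicate 12. The ISGF3 targets summed to 1043, 2338 and 1657 CPM in WT NoTx, 796, 715 and 744 in TG NoTx, 792, 947 and 1431 in WT UVB and 1003, 2300 and 1284 in TG UVB nodes, with *Parp14* the most abundant. As with *Irf9*, all 3 TG NoTx libraries were below all WT NoTx and all TG UVB libraries. The list's median log2 fold change was -1.83 between the untreated genotypes, 1.63 with UVB in TG nodes, -1 with UVB in WT nodes, 0.76 between the genotypes after UVB and 2.46 for the interaction, where the medians of all tested genes were -0.00375, 0.02, -0.00485, 0.00646 and 0.00821. No set of genes was tested as a whole.

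Several marker sums separated WT nodes with and without UVB, though few single markers passed. With UVB in WT nodes 1 of 3 endothelial markers (*Pecam1*, also the most abundant) and 1 of 4 dendritic cell markers (*Ccr7*, also the most abundant) fell, both named after their values were seen, and 0 markers of the other lists passed in edgeR. The endothelial sum was 286, 273 and 322 CPM in WT NoTx, 263, 260 and 262 in TG NoTx, 221, 198 and 236 in WT UVB and 225, 265 and 237 in TG UVB nodes. The dendritic cell sum was 503, 470 and 524 CPM in WT NoTx, 448, 476 and 471 in TG NoTx, 384, 361 and 403 in WT UVB and 384, 419 and 430 in TG UVB nodes. Both sums were lower in all WT UVB than in all WT NoTx libraries, and 0 of these markers were at 0 in all LN libraries. The dendritic cell sum is carried by *Ccr7*, which naive lymphocytes also express, and the log2 fold changes of *Itgax* (0.36), *Flt3* (0.31) and *Xcr1* (0.03), which did not pass, had the opposite sign. T cell markers, led by *Cd4*, summed to 2079.7, 2076 and 2075 CPM in WT NoTx, 1831, 1985 and 1932 in TG NoTx, 1622, 1841 and 1817 in WT UVB and 1752, 1958 and 2143 in TG UVB nodes. Fibroblast markers, led by *Col1a2*, summed to 64.9, 63.1 and 45.7 CPM in WT NoTx, 54.4, 108 and 56.0 in TG NoTx, 37.7, 13.6 and 14.8 in WT UVB and 30.1, 19.1 and 57.4 in TG UVB nodes. T cell, fibroblast and stroma sums were thus also lower in all WT UVB than in all WT NoTx libraries, and the TG groups overlapped in each. Plasma cell markers, led by *Xbp1*, were higher, at 76.0, 75.0 and 72.5 CPM in WT NoTx against 123, 82.0 and 86.4 in WT UVB nodes. Neutrophil markers overlapped, with a list median of -1.98 on the log2 scale.
Stroma markers, led by *Ccl21a*, summed to 73.6, 77.3 and 56.3 CPM in WT NoTx, 78.1, 155 and 68.5 in TG NoTx, 47.9, 16.7 and 17.1 in WT UVB and 25.0, 22.9 and 73.1 in TG UVB nodes. TG NoTx replicate 5, the lowest in *Irf9* and *Stat2*, was the highest in stroma markers. It was also the highest in fibroblast markers (108 CPM, against 13.6 to 64.9 in the other libraries) and the lowest in B cell markers (1049 CPM). The part of these markers in the changes was not tested.

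The genes whose pattern was most like that of a changed member were found by the smallest root mean square difference of centred log2 CPM, over 9 skin libraries and 19100 other genes. For *Stat2* they were *Usp18* (0.133), *Parp12* (0.166) and *Herc6* (0.175). For *Irf9* they were *Ifi35* (0.115), *H2-T23* (0.117) and *H2-Q4* (0.126), where the SD of *Irf9* itself was 0.51. For *Socs1*, with an SD of 1.07, they were *Lrrc4* (0.190), *Gpr171* (0.295) and *Gjb1* (0.302). The genes that fell had others near them, *Lifr* (0.133), *Cyp27a1* (0.135) and *Cnr2* (0.142) for *Ifngr1*, and *Fnip1* (0.0915), *Vwa5a* (0.0974) and *Inpp5k* (0.108) for *Jak1*. Over the 12 LN libraries and 16172 other genes, *Spata5l1* (0.115), *Sfpq* (0.126) and *Rbm14* (0.134) were nearest to *Socs1*, whose SD there was 0.28. These differences grow with the spread of a gene, so they are not compared between members, and likeness carries no test.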

How the data were processed

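Poly-A RNA was sequenced in 21 libraries. The authors used cutadapt 4.8, STAR 2.7.8a on GRCm38 and RSEM 1.3.3, and the deposited values are expected counts per gene, all whole numbers. Positions and lengths are from GENCODE M21, which holds 55227 of the 55491 identifiers. Here edgeR 4.0.16 (R 4.3.3) filtered low counts with filterByExpr, leaving 19101 genes in skin and 16173 in LN, all 9 members among them, scaled libraries by TMM and fitted all libraries of a tissue together (quasi-likelihood F-test, robust, Benjamini-Hochberg over all tested genes, limit 0.05). The SE is the log2 fold change over the root of F. The code was tested on simulated data. Depth was 27599809 to 56511276 counts per library, without molecular identifiers. Alternatives tried were DESeq2 1.42.0, RLE and upper-quartile scaling, no low-count filter, at least 10 counts in every library, the compared groups alone, scaling without keratin, muscle and adipocyte genes (skin), and each library left out. Named genes are the members, at most 3 called genes with the largest change per pathway list and comparison, and *Jak2*, *Ifnk*, *Ifng* and *Socs3*. Another gene of the lists is not reported here. The members and lists were chosen with earlier results of these data known. Plots used matplotlib 3.10.9.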

Additional observations from a re-analysis of the deposited data

Results flagged for a closer look

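Values of the 9 genes and of the pair ratios were examined in L skin, the group with 4 libraries, for a library far from the rest. Of 13 such values 2 passed Dixon's limit at the 95% level, and chance alone takes about 1 in 20 groups past it. *Tyk2* in L replicate 6 stood at 28.1 CPM above 22.1, 22.2 and 22.8 CPM in the other L libraries, a gap of 0.871 of the group's range. The log2 ratio of *Ifnar2* to *Ifnar1* in L replicate 5 was -1.11, below -0.48, -0.46 and -0.52 in the other L libraries, a gap of 0.907 of the range. L replicate 5 was also the lowest in muscle markers (18.3 CPM) and adipocyte markers (114 CPM), and the part of these in the ratio was not tested.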

How the results depend on the processing

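No paired analysis was possible because the sources used here do not name the mouse behind a library. The replicate numbers run on across groups and do not show whether samples share a mouse. For the 9 genes, 429 values from settings that keep every library and 687 values with 1 library left out kept their sign and their side of the threshold. A change of sign with no call on either side was seen in 14 and 70, a call was gained in 4 and 4 and lost in 3 and 22, and 0 called values changed sign. DESeq2 called 4 members for L against NL skin and 2 for UVB in WT nodes. Over all genes it called 80 for NL against WT skin, 2002 for UVB in WT nodes, 137 for UVB in TG nodes, 2 and 19 between the genotypes without and with UVB, and 8 for the interaction. With the compared groups alone there was 1 member and 3156 genes for L against NL skin, 1 gene for NL against WT skin, and 2 members and 2431 genes for UVB in WT nodes. Without a filter on low counts 1 gene passed between the genotypes after UVB. With 1 library left out, members ranged from 3 to 5 for L against WT skin, 0 to 3 for L against NL skin and 0 to 2 for UVB in WT nodes. Genes then ranged from 1182 to 5187 for L against NL skin, 0 to 2644 for UVB in WT nodes, 0 to 236 for UVB in TG nodes, 0 to 1 between the untreated genotypes, 0 to 2 between the genotypes after UVB and 0 to 1 for the interaction. For each of these shifts the cause was not tested. NL skin has 2 libraries and most other groups 3, no detection limit was computed, and *Socs1*, at 72 to 151 counts in WT and NL skin, is the member with the fewest counts.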
